A study of Mus musculus with 39 samples.

Results

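The genes of the proteasome were followed across 39 single cells of the irradiated mouse crypt. They were taken by name, as every gene of the deposited expression values whose symbol begins with Psm, a letter from a to g and a number, with pseudogenes left out, which gave 50 of 25219 genes. By role they comprised 14 subunits of the standard core, 3 induced catalytic subunits (Psmb8, Psmb9 and Psmb10), 2 tissue-specific core subunits, 17 subunits of the regulatory particle, 5 genes of other caps, 1 inhibitor and 7 assembly chaperones. The name rule also took in Psmc3ip, a partner of recombinases in meiosis that is not a proteasome subunit. All cells came from animals with the alleles Lgr5-EGFP-Ires-CreERT2:Rosa-lsl-tdTomato, which were given tamoxifen 24 h before total body irradiation (TBI) with 10 Gy. The tdTomato+ Sca1- crypt epithelial cells were sorted 48 h after the irradiation. In this line, Cre is made from the Lgr5 locus and is active only after tamoxifen, so the red label marks cells that expressed Lgr5 at that time and their descendants, hereafter Lgr5-Derivatives. Every cell carried the same alleles and received the same treatment, and unirradiated cells were not analysed here. The animal of origin is not given for any cell, and the 39 cells were treated as 1 biological sample, so that every SD below is a spread over cells and no p-value is given.

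The proteasome is the protease that degrades most short-lived and damaged proteins of the cytosol and nucleus, after they have been tagged with ubiquitin. Its core is a barrel of stacked rings, in which alpha subunits (Psma genes) form the outer gates and beta subunits (Psmb genes) the inner chamber. The subunits Psmb5, Psmb6 and Psmb7 carry the active sites. A regulatory particle binds the ends of the barrel, and its ring of ATPases (Psmc genes) unfolds the substrate and opens the gate, while other subunits (most Psmd genes) bind ubiquitin and remove it. In immune cells and under interferon, Psmb8, Psmb9 and Psmb10 replace Psmb5, Psmb6 and Psmb7 in newly built cores, which are then called immunoproteasomes and are known for making peptides for MHC class I.

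The catalytic genes come in a standard and an induced form, and the cells held these in different mixes, so the DNA before their start sites is shown. RefSeq promoter windows of GRCm38.p6 were found for 42 of the 50 genes, and 35 of them began at the deposited gene start. The 250 bases before the start were searched on both strands for TGACNNNGC (the core of the element bound by NRF factors), CCAAT, the core of the interferon-stimulated response element and TTCNNNGAA (the site type of STAT factors). Matches are in capitals, and the sequences run 5′ to 3′ on the strand of the gene. They lie at chr14:54617996-54618245 (minus strand) for Psmb5, chr11:70525107-70525356 (plus) for Psmb6, chr17:34197945-34198194 (plus) for Psmb8, chr17:34187331-34187555 (minus) for Psmb9 and chr8:105938393-105938642 (minus) for Psmb10.
Psmb5: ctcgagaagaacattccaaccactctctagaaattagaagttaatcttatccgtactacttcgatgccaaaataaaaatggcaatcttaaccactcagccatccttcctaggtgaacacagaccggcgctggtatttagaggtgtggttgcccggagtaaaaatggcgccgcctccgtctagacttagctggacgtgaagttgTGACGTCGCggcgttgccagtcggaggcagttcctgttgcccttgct
Psmb6: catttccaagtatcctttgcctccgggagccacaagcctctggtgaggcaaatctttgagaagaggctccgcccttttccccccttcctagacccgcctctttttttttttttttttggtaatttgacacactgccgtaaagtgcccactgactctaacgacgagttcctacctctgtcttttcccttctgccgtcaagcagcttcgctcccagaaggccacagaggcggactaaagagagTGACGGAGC
Psmb8: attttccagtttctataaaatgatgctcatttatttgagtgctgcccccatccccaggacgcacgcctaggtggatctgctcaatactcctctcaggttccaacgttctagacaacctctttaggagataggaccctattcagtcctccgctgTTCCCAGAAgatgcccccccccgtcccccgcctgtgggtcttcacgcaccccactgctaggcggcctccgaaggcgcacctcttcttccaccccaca
Psmb9: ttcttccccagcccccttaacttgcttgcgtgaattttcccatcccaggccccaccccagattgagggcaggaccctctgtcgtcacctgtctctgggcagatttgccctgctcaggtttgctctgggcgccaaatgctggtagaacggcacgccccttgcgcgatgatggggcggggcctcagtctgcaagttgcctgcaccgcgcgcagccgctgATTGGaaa
Psmb10: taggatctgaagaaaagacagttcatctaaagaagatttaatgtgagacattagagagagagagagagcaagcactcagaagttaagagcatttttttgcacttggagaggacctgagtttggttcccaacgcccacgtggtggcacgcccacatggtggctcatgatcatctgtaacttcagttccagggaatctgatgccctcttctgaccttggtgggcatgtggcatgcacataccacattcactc

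The first motif matched at 47 bases before the start of Psmb5 and at 9 bases before that of Psmb6. The STAT-type motif matched at 97 bases before Psmb8, and a reversed CCAAT at 8 bases before Psmb9. None of the 4 motifs matched in the window of Psmb10. The sequence of Psmb9 is the whole space of 225 bases between it and Tap1, a peptide transporter gene read in the opposite direction, and Psmb8 begins 969 bases after the end of Tap1. Over the 42 windows, TGACNNNGC was present in 5 (11.9%), against 10.2% of 32851 windows of all genes. CCAAT was present in 14 (33.3%), against 33.8%. The core of the interferon-stimulated element was present in 3, against 2.98% of all windows, and TTCNNNGAA in 2, against 7.02%. A match is only a run of letters, and no binding was measured here.

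The deposited values are FPKM (fragments divided by transcript length and by the total of the cell, so that levels can be compared between genes) and estimated counts. Estimated counts on genes lay between 398418 and 3903971 per cell, and between 2287 and 5779 genes reached 1 FPKM, the level called detected here. Cells were grouped by the cluster labels that the study prints for them, which put 22 cells in Cluster 1 and 15 in Cluster 2 and give no label to cells 9 and 79. The study formed these clusters on an intestinal stem cell signature, and a new clustering on its 98 genes found here, none of which is a proteasome gene, returned the printed label for 37 of 37 cells. Because the labels come from the RNA of the same cells, differences between clusters are descriptions. Epcam was detected in 39 of 39 cells, the immune cell gene Ptprc did not exceed 0.312 FPKM in any cell, and Cd3e, Cd8a, Cd79a, Col1a1, Col3a1 and Pecam1 were at 0 throughout. The immune genes Itgam and Lyz2 and the stromal gene Vim were each detected in 1 cell. They reached 2.75 FPKM in cell 2, 1.58 in cell 63 and 3.29 in cell 66. The gate was Sca1-, but RNA of Ly6a, which encodes Sca1, reached 1 FPKM in 4 cells, all in Cluster 2. Ly6a was at 477 and 509 FPKM in cells 5 and 34, and at 3.44 and 1.26 FPKM in cells 2 and 43. Cells 9 and 79 had the fewest genes detected (2287 and 2335).

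The proteasome genes were among the broadly detected genes of these cells. Of the 50, 33 were detected in 30 or more cells, against 19.3% of the 9676 genes that averaged 1 FPKM or more in the 37 labelled cells. Together they held a median of 1.69% of the FPKM of a cell, from 0.808% in cell 79 to 2.47% in cell 51. The plot of all members shows core subunits mostly at the right, and the regulatory particle mostly lower and more widely spread. Medians of the induced subunits and chaperones lay between 0 and 62.3 FPKM. Some core and particle genes, such as Psmb7 and Psmd13, also fell to 0 in single cells.

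**Figure D1:**
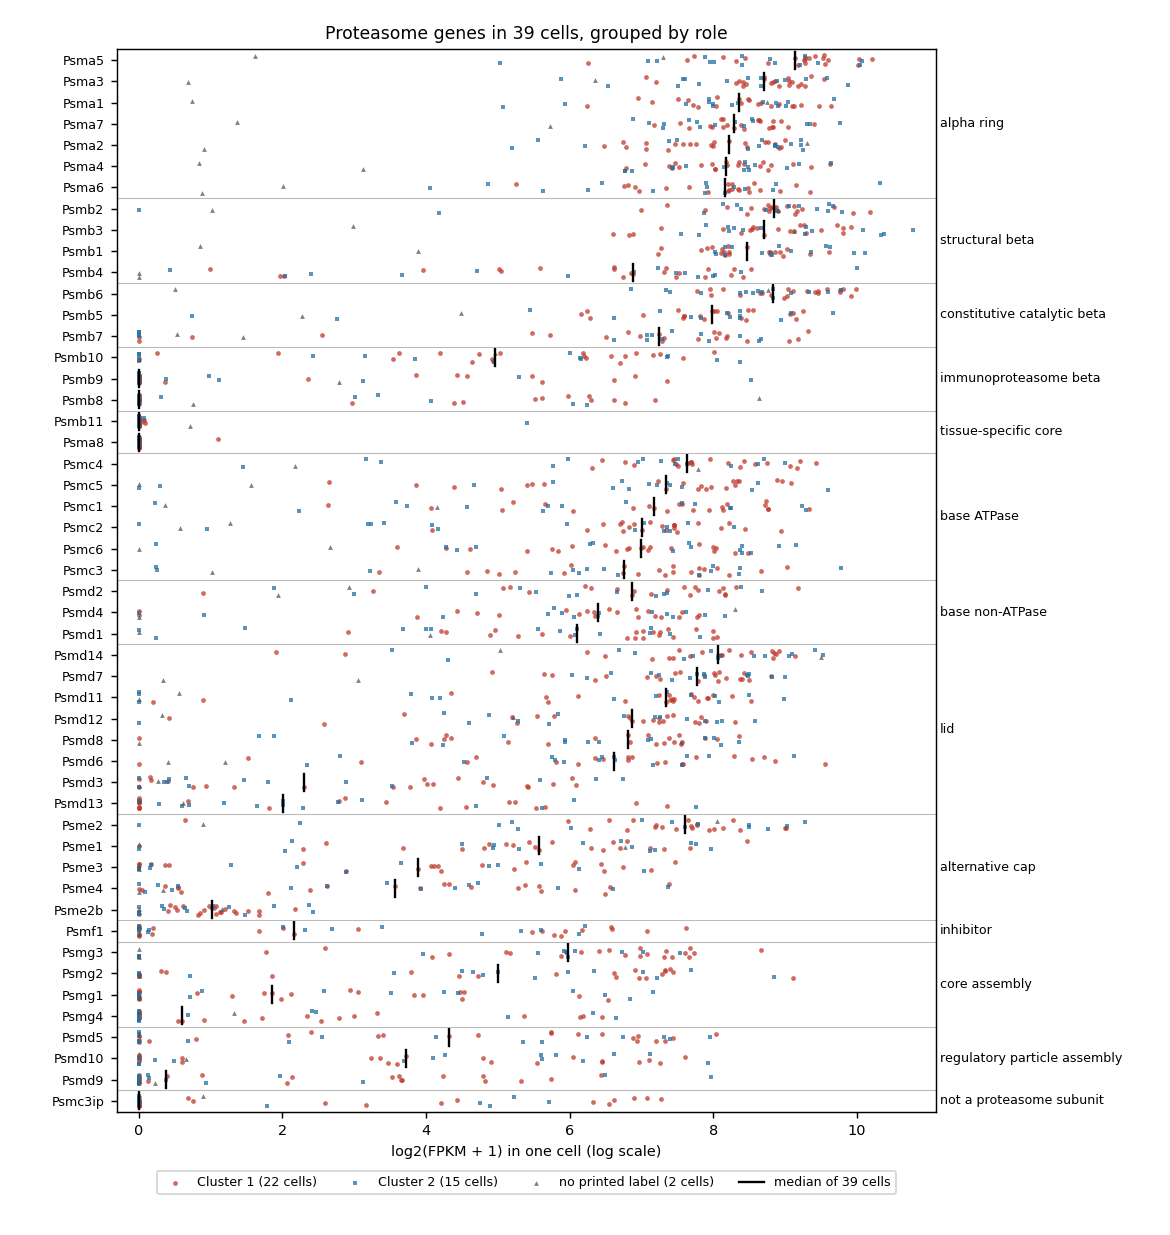
Level of each of the 50 proteasome genes in each of 39 cells as log2(FPKM + 1), with genes grouped by role and sorted by median (black bar); red circles are Cluster 1, blue squares Cluster 2 and grey triangles the 2 cells without a printed label. The 14 standard core genes have medians between 117 and 561 FPKM, whereas the medians of Psmb8 and Psmb9 are 0.

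Between the clusters, most proteasome genes were somewhat higher in Cluster 1, and the 2 genes that stood furthest apart with the printed labels were the chaperone Psmg3 and the regulatory particle ATPase Psmc2. Of 49 genes that averaged 1 FPKM or more (Psma8 did not), 37 were higher in Cluster 1 and 12 in Cluster 2, by the mean of log2(FPKM + 1). That is 75.5% toward Cluster 1, against 60.5% of all genes that averaged 1 FPKM or more. A difference of at least 1 on this scale, a 2-fold limit, was reached by 9 genes toward Cluster 1, while 14.9% of all 9676 genes reached it in that direction, so the count of members lay close to the background. Toward Cluster 2 the limit was reached by 0 proteasome genes, against 4.89% of all genes. The median difference was 0.54 over the 49 genes and 0.20 over all genes, and 33 of the 49 lay above the latter. Among 4938 genes that averaged 10 FPKM or more, 9 of 47 members passed toward Cluster 1, against 25.4% of all such genes, and the medians were 0.56 and 0.36. Without cell 96 the median over the members was 0.31, against 0.16 over all genes. Only for Psmc2 was the difference larger than the pooled SD over cells.

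These differences were sensitive to how cells were averaged and which cells were used. With the log2 ratio of mean FPKM in place of the mean of logs, 4 genes passed the limit toward Cluster 1 (Psmf1, Psmg3, Psmc3ip and Psmb8), against 23.6% of all genes, and 2 toward Cluster 2 (Psmb11 and Psmg1), against 20.7%. Then 28 genes were higher in Cluster 1 and 21 in Cluster 2, and the median over the members was 0.05, against 0.07 over all genes. Without the 4 cells with Ly6a RNA, 15 passed toward Cluster 1, against 20.6% of all genes, and 3 of them were core genes (Psmb7, Psmb2 and Psmb5). With all 39 cells clustered anew, which put cells 9 and 79 in Cluster 2, 20 passed, against 19.2%, and 6 of them were core genes (Psmb7, Psma5, Psmb2, Psma6, Psma3 and Psmb5). In 12 cells of each cluster paired on the number of genes detected, 6 passed toward Cluster 1 (Psmc2, Psmg3, Psmc4, Psmd11, Psmd3 and Psme2), against 14.4% of all genes, and 2 (Psmg1 and Psmg2) toward Cluster 2, against 9.67%, and the median was 0.23, against 0.07 over all genes. Cluster 2 cells had fewer genes detected, with a median of 4138 against 4663.5 in Cluster 1, and its part in the differences was not tested beyond this pairing. All 5 cycling markers (Mki67, Top2a, Ccnb1, Pcna and Mcm6) also passed the limit toward Cluster 1, with summed levels from 69.0 to 1211 FPKM in Cluster 1 and from 0.0308 to 1034 FPKM in Cluster 2, and their part was not tested.

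**Figure D2:**
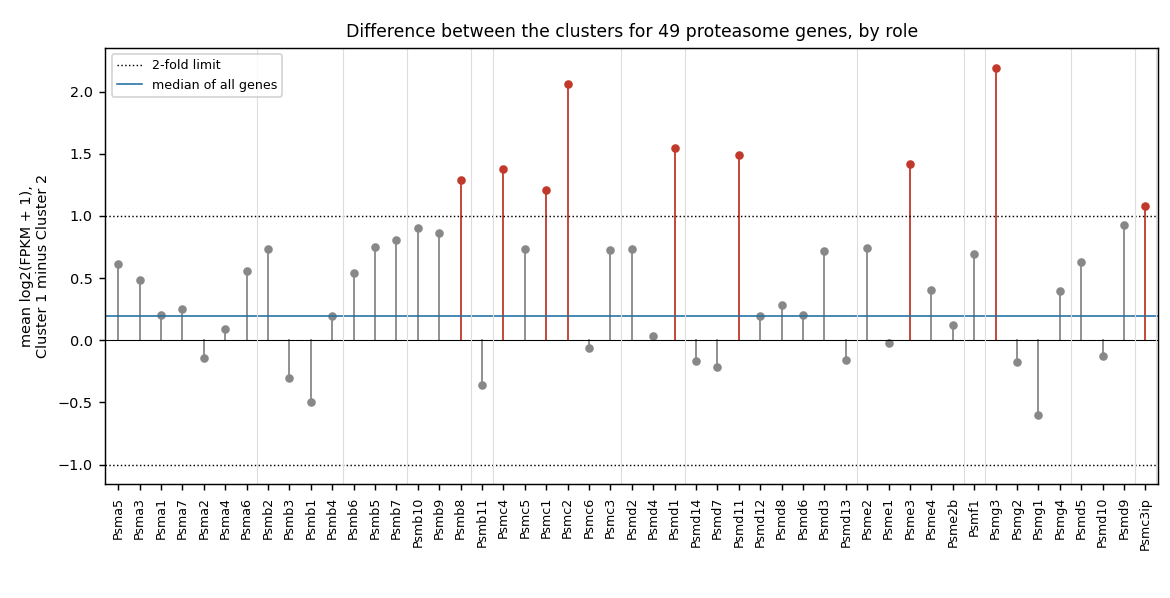
Difference in mean log2(FPKM + 1), Cluster 1 (22 cells) minus Cluster 2 (15 cells), for 49 proteasome genes in the order of their roles; red marks the 9 genes past the 2-fold limit (dotted lines), and the blue line is the median of 9676 genes, 0.20. With these labels no gene reaches the limit toward Cluster 2 and no gene of the standard core reaches it in either direction; with all 39 cells clustered anew, 6 core genes do.

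The core was the most even component. Psma5, a subunit of the alpha ring at chr3:108256926-108279952 (mm10), was the highest, with 2.07 FPKM in the lowest cell, a median of 561 and 1184 in the highest. Psma6, at the low end of the alpha ring, ran from 0.841 through a median of 286 to 1281 FPKM. All 7 alpha ring genes were detected in 38 or 39 cells and their medians spanned less than the range of any single one over cells. None of the 7 passed the 2-fold limit with the printed labels. The mean log2(FPKM + 1) over the 14 core genes differed between the clusters by 0.31. It was 0.83 with all 39 cells clustered anew, 0.18 without cell 96, 0.16 without cells 43, 63 and 96, and 0.12 in cells paired on genes detected.

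Among the beta subunits without an active site, Psmb2 (chr4:126677643-126709715) ran from 0 to 1159 FPKM with a median of 458. Psmb4 (chr3:94884324-94886958) had the lowest median of the core, 117 FPKM, with a range of 0 to 1021 and detection in 35 cells. Psmb1 and Psmb3 leaned toward Cluster 2 by the mean of log2(FPKM + 1). Psmb1 had a median of 297 FPKM in Cluster 1 and 448 in Cluster 2, and differed by -0.50 in mean log2(FPKM + 1) with a pooled SD of 0.65. Psmb3 had medians of 447 and 405 FPKM, which ran the other way, with a difference of -0.31 and a pooled SD of 1.01. Its highest value, 1764 FPKM, was in cell 63 of Cluster 2, and the clusters overlapped for both genes.

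Ordered by median FPKM, the core read Psma5, Psmb2, Psmb6, Psmb3, Psma3, Psmb1, Psma1, Psma7, Psma2, Psma4, Psma6, Psmb5, Psmb7 and Psmb4. No neighbours in this order were separated beyond their spread, since the median log2 difference within a cell was smaller than its SD for each pair. The clearest step was from Psmb5 to Psmb7, with Psmb5 higher in 30 of 39 cells and a median log2 difference of 0.75 (SD 3.14).

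All 14 core genes were detected in 29 of 39 cells (74.4%, exact 95% interval 57.9 to 87.0%, counting error only), in 18 of 22 cells of Cluster 1 and 11 of 15 of Cluster 2. A further 6 cells lacked a single core gene and 4 lacked more. Cells 9 and 79 were the most incomplete with 9 of 14 each, followed by cell 96 of Cluster 2 with 11. Psmb7 was the gene most often below the limit. After thinning every cell to 600000 reads, which left out cell 9, all 14 had a read in 29 of 38 cells.

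Of the standard catalytic genes, Psmb6 (chr11:70525357-70527858) was the highest, from 0.418 FPKM in cell 79 through a median of 453 to 1014 in cell 30. Psmb5 (chr14:54614120-54617995) ran from 0.677 FPKM in cell 96 through 251 to 808 in cell 43. Psmb7 (chr2:38588046-38643906) ran from 0 through 150 to 640 FPKM and was detected in 31 cells. Psmb7 was thus the lowest of the 3 and the one most often below 1 FPKM. All 3 were higher in Cluster 1, by 0.54 for Psmb6 (pooled SD 0.75), 0.75 for Psmb5 (SD 1.70) and 0.80 for Psmb7 (SD 3.18), and the clusters overlapped for each. Psmb5 had its lowest values in cells 96 (0.677 FPKM) and 63 (5.76 FPKM) of Cluster 2 among the labelled cells, and its median was lower in Cluster 1 (254 FPKM) than in Cluster 2 (291 FPKM).

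The induced catalytic genes behaved differently from each other. Psmb10 (chr8:105935728-105938392) was a common part of these cells, while Psmb8 (chr17:34198195-34201454) and Psmb9 (chr17:34182099-34187330) were present in a minority. Psmb10 was detected in 32 of 39 cells (82.1%, interval 66.5 to 92.5%), with values there from 2.84 through a median of 70.1 to 329 FPKM. Psmb8 was detected in 17 cells (43.6%, 27.8 to 60.4%), from 6.81 through 61.7 to 396 FPKM. Psmb9 was detected in 14 cells (35.9%, 21.2 to 52.8%), from 1.17 through 30.6 to 369 FPKM. At least 1 of the 3 was present in 35 cells, counted as 16 cells with 1, 10 with 2 and 9 with all 3.

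Set against the standard subunit it replaces, Psmb10 made up a median of 29.2% of the FPKM of Psmb7 plus Psmb10, over 37 cells in which the sum reached 1 FPKM. It was the higher of the pair in 10 cells, and in 6 of the cells with Psmb10 no Psmb7 was detected. For example, cell 39 had 24.1 FPKM of Psmb10 and 0 of Psmb7. Psmb8 made up a median of 0.053% of Psmb5 plus Psmb8 over 38 cells and exceeded Psmb5 in 3 cells. Psmb9 made up a median of 0% of Psmb6 plus Psmb9 over 39 cells and exceeded Psmb6 in 2 cells. With FPKM summed over all cells first, the shares were 28.3% for Psmb10, 10.9% for Psmb8 and 4.68% for Psmb9, so a few cells held most of the Psmb8 and Psmb9 RNA.

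**Figure D3:**
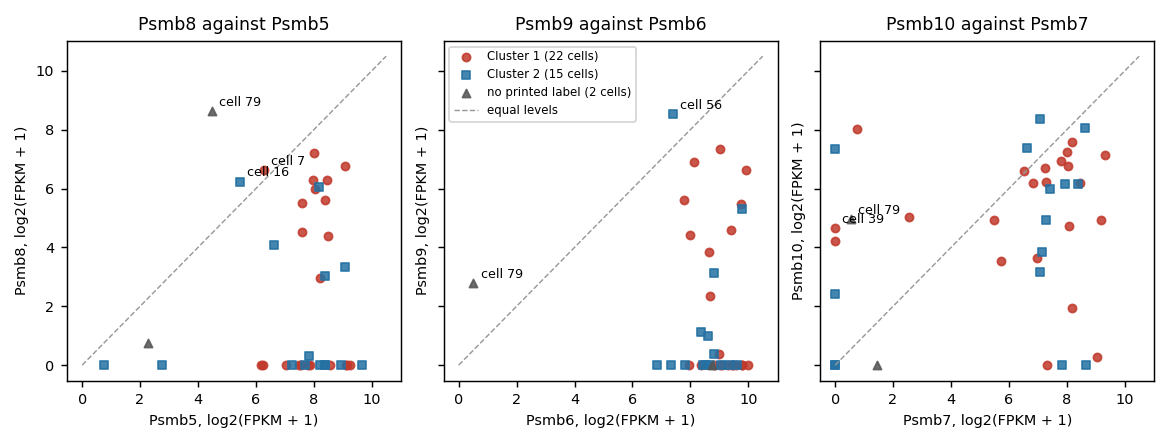
Each induced catalytic gene against the standard gene it replaces, both as log2(FPKM + 1), in 39 cells coloured by cluster; points above the dashed line have more of the induced gene. Psmb8 exceeds Psmb5 in 3 cells, Psmb9 exceeds Psmb6 in 2, and Psmb10 exceeds Psmb7 in 10.

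Cell 79, which has no cluster label, was the extreme for Psmb8, with 396 FPKM against 21.4 of Psmb5. The same cell had 5.91 FPKM of Psmb9 and 0.418 of Psmb6, so the induced form was the higher in both pairs. It also held the highest levels of the MHC class I genes B2m (6098 FPKM), H2-K1 (1795) and H2-D1 (4117), and of the enterocyte gene Fabp1 (40997 FPKM) and the tuft cell gene Trpm5 (181 FPKM). The enterocyte genes Alpi and Sis were at 0 in it. The tuft genes Dclk1 and Pou2f3 were highest in cell 96 (222 and 162 FPKM). Dclk1 was detected in 2 cells only, and was at 105 FPKM in cell 79. Ptprc was at 0 in it, and Epcam was at 282 FPKM. Cell 56 of Cluster 2 was the extreme for Psmb9, with 369 FPKM against 167 of Psmb6, and had 0 FPKM of Psmb8. This cell alone held 88.4% of the summed Psmb9 of Cluster 2.

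Psmb8 and Psmb9 lie 10864 bases apart on chromosome 17 with Tap1 between them. Both were detected in 9 cells, Psmb8 alone in 8, Psmb9 alone in 5 and neither in 17. Tap1 itself was detected in 4 cells, 3 of them with Psmb8 and 1 with Psmb9. Spearman correlation of Psmb8 with Psmb9 was 0.40 over 39 cells, which share differences in depth and in genes detected. Psmb8 and Psmb9 were thus found in partly different cells, and Tap1 was rarely seen with either.

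Split by label, 11 of 22 Cluster 1 cells had Psmb8 (interval 28.2 to 71.8%), as did 5 of 15 Cluster 2 cells (33.3%, 11.8 to 61.6%), and its difference of 1.29 passed the 2-fold limit but was smaller than the pooled SD of 2.77. It did not pass with all 39 cells clustered anew, in cells paired on genes detected, or without cells 43, 63 and 96. Psmb9 was detected in 9 and 4 cells, with a difference of 0.87. Psmb10 was detected in 20 and 11 cells, with a difference of 0.90. For all 3 genes the intervals of the detected shares overlapped widely. Cells without any of the 3 numbered 0 of 22 in Cluster 1, which allows a share of up to 15.4%, and 3 of 15 in Cluster 2.

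The regulatory particle was lower than the core and more uneven. Its summed FPKM divided by its 17 genes lay below the same quantity for the 14 core genes in 39 of 39 cells, with medians over cells of 141 and 351 FPKM. Over the 37 labelled cells the coefficient of variation had a median of 0.831 across the particle and 0.553 across the core. For 357 other genes with means in the range of the core genes it was 0.666. Gene means ran from 19.2 to 289 FPKM in the particle and from 162 to 551 in the core. Other genes in the range of the particle were not compared, so the part of level in its spread was not tested.

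The ring of ATPases, which drives unfolding, held 3 of the 5 particle genes past the 2-fold limit, which 14.9% of all genes passed. Psmc2 (chr5:21785283-21803784) ran from 16 through a median of 158 to 493 FPKM in Cluster 1 and from 0 through 61.6 to 310 in Cluster 2. Its difference was 2.06, with a pooled SD of 1.8. Psmc4 (chr7:28041702-28050092), the highest ATPase, ran from 78.4 through 207 to 690 FPKM in Cluster 1 and from 1.73 through 154 to 509 in Cluster 2, and differed by 1.37 (SD 1.57). Psmc1 (chr12:100112331-100123364) ran from 5.22 through 186 to 644 and from 0.175 through 58.3 to 623 FPKM, a difference of 1.21 (SD 2.13). Psmc1 did not pass the limit without the cells with Ly6a RNA or in cells paired on genes detected. The clusters overlapped for each of these genes, with both the median and the lowest value lower in Cluster 2.

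Psmc3 and Psmc5 were higher in Cluster 1 by 0.73 and 0.74, under the limit, and Psmc6 differed by -0.06. In all, 3 of 6 ATPases passed the limit, against 14.9% of all genes and 25.4% of those that averaged 10 FPKM or more, and none did with the log2 ratio of mean FPKM, against 23.6% of all genes. The count was 2 in cells paired on genes detected, against 14.4%, and 5 both with a pseudocount of 0.1 FPKM, against 27.7%, and with all 39 cells clustered anew, against 19.2%. All 6 were found in each of the 22 Cluster 1 cells (exact interval 84.6 to 100%) and in 9 of 15 Cluster 2 cells (32.3 to 83.7%), or in 5 of 11 without the cells with Ly6a RNA. The 6 incomplete cells of Cluster 2 were cells 16, 29, 51, 56, 92 and 96. Cell 51 among them had the highest proteasome score of all cells. The mean log2(FPKM + 1) over the 6 genes was 7.12 ± 0.56 (SD, n = 22) in Cluster 1 and 6.11 ± 1.13 (SD, n = 15) in Cluster 2. The difference of 1.01 became 0.83 without cell 96, 0.99 without the cells with Ly6a RNA and 0.75 in the cells paired on genes detected, and it was 1.22 with a pseudocount of 0.1 FPKM and 1.48 with all 39 cells clustered anew.

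**Figure D4:**
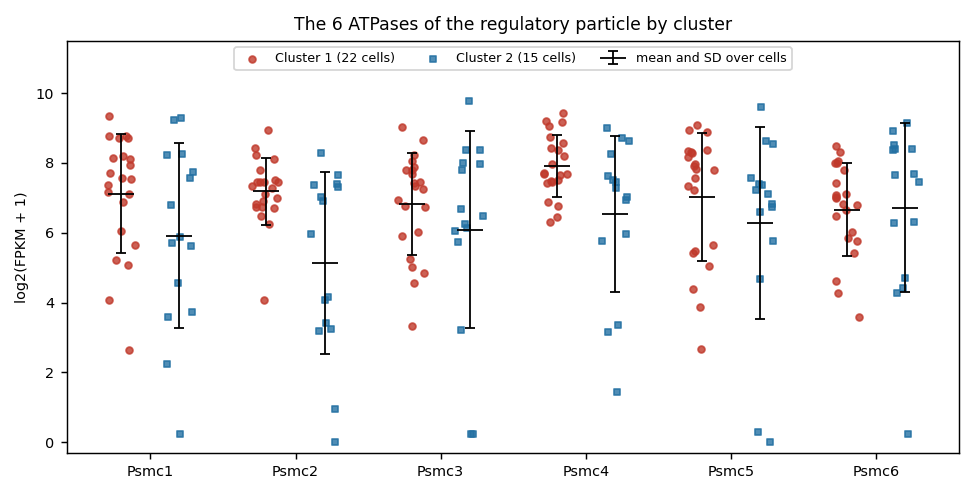
Level of the 6 ATPases of the regulatory particle as log2(FPKM + 1) in each labelled cell, by cluster, with the mean and SD over cells in black. Psmc2, Psmc4 and Psmc1 pass the 2-fold limit, and values near 0 occur in Cluster 2 for Psmc1, Psmc2, Psmc3, Psmc5 and Psmc6.

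Of the other base subunits, the scaffold Psmd2 ran from 0.862 through a median of 115 to 581 FPKM. Psmd1 (chr1:86064619-86139295), the other scaffold, had a median of 125 FPKM in Cluster 1 and 57.2 in Cluster 2, and its difference of 1.55 passed the limit (pooled SD 1.96). The ubiquitin receptor Psmd4 differed by 0.03. In the lid, which removes ubiquitin, the deubiquitinase Psmd14 (chr2:61711694-61800376) was the highest gene of the particle, from 2.76 through 267 to 737 FPKM, and was detected in 39 cells. Psmd13 was the lowest, from 0 through 3.02 to 216 FPKM, and was detected in 23 cells, as was Psmd3, with a median of 3.93 FPKM. Those were the 2 subunits most often missing.

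Psmd11, a lid subunit (chr11:80428615-80472133), had a median of 169 FPKM in Cluster 1 and 97.0 in Cluster 2 and passed the limit with a difference of 1.49 (pooled SD 2.69). Psmd7, the partner of Psmd14 in the lid, leaned the other way by -0.21, although its median was 227 FPKM in Cluster 1 and 218 in Cluster 2. In all, 5 of the 17 genes of the particle passed the limit toward Cluster 1 and 0 toward Cluster 2, against 14.9% and 4.89% of all genes and, toward Cluster 1, 25.4% of those that averaged 10 FPKM or more. All 17 were detected in 8 of 39 cells, with 4 of 22 in Cluster 1 (exact interval 5.19 to 40.3%) and 4 of 15 in Cluster 2 (7.79 to 55.1%), or 1 of 11 without the cells with Ly6a RNA.

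Other caps replace the regulatory particle on some cores. Psme1 (chr14:55578494-55581527) and Psme2 (chr14:55587440-55591101), whose proteins form an interferon-inducible ring together, lie 5912 bases apart and were each detected in 36 cells. Psme2 had the higher level, with a range of 0 to 620 FPKM and a median of 194. Psme1 ran from 0 to 352 FPKM with a median of 46.6. Both were detected in 34 cells and 1 cell had neither, so these genes were found in more cells than Psmb8 and Psmb9. Psme1 differed between clusters by -0.02 and Psme2 by 0.74, each within its SD (2.14 and 2.11).

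Psme3, which makes a nuclear cap (chr11:101316251-101323530), had a median of 17.2 FPKM in Cluster 1 and 3.61 in Cluster 2, and its difference of 1.42 passed the limit (SD 2.54). Psme4, another nuclear cap, ran from 0 through 10.9 to 165 FPKM and differed by 0.41. Psme2b is a near-identical copy of Psme2, and its value is uncertain. It reached 1 FPKM in 20 cells, all of which had Psme2, and received 174 estimated counts in all against 27666 for Psme2. The inhibitor Psmf1 ran from 0 through 3.48 to 196 FPKM and was detected in 23 cells, 14 in Cluster 1 and 9 in Cluster 2.

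The chaperones that build the proteasome were low but held the gene furthest apart between the clusters. Psmg3 (chr5:139823594-139826843), which helps to assemble the alpha ring, was found in each of the 22 Cluster 1 cells and in 10 of 15 from Cluster 2. It ran from 2.43 through a median of 117 to 406 FPKM in Cluster 1 and from 0 through 59.8 to 185 in Cluster 2. The difference of 2.19 was the largest among the members, and was smaller than its pooled SD of 2.36. Its partner in the alpha ring chaperone pair, Psmg4, had a median of 0.522 FPKM and differed by 0.39. Psmg1 and Psmg2, which form the other pair, leaned toward Cluster 2, by -0.60 and -0.18. The median of Psmg2 ran the other way, with 76.1 FPKM in Cluster 1 and 31.2 in Cluster 2.

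Chaperones of the regulatory particle were Psmd5, Psmd9 and Psmd10. Psmd5 was the highest, from 0 through 19 to 263 FPKM. Psmd9 was the lowest, with a median of 0.303 FPKM, and cell 63 with 249 FPKM held 71.1% of its sum in Cluster 2. None of the 3 passed the limit. The tissue-specific core genes were nearly silent: Psmb11, known from thymic epithelium, was at 41.5 FPKM (640 estimated counts) in cell 4 and under 1 FPKM in every other cell, and Psma8, known from testis, reached 1.15 FPKM in cell 72 only. Psmc3ip was detected in 15 cells, with values up to 153 FPKM and a difference of 1.08 (SD 2.74), and it did not pass the limit without cell 96.

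The proteasome score, the mean log2(FPKM + 1) over the 50 genes, was 5.69 ± 0.36 (SD, n = 22) in Cluster 1 and 5.18 ± 0.71 (SD, n = 15) in Cluster 2. The difference of 0.51 was smaller than the pooled SD over cells, 0.53. Scores in Cluster 1 lay between 5.04 and 6.32 and those in Cluster 2 between 3.58 (cell 96) and 6.62 (cell 51), so that Cluster 2 held both extremes of the labelled cells. Cells 9 and 79 were lower, at 1.70 and 2.49. Cell 96 also had the highest levels of the tuft cell genes Dclk1 (222 FPKM) and Pou2f3 (162 FPKM), and its 25 detected members were the fewest among labelled cells. Without cell 96 the difference of the score was 0.39, without the cells with Ly6a RNA it was 0.62, and in the cells paired on genes detected it was 0.24.

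The score went with the number of genes detected, with Spearman rho = 0.75 and Pearson r = 0.77 over the 37 labelled cells. These cells share a platform but differ in depth, and rho with the estimated counts per cell was 0.48. The relation was not even over the roles. For the alpha ring, which was detected in nearly every cell, rho with genes detected was -0.01, and for the regulatory particle it was 0.59. For single members that averaged 10 FPKM or more, the median rho was 0.16, the same as over 4891 other genes (0.16).

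**Figure D5:**
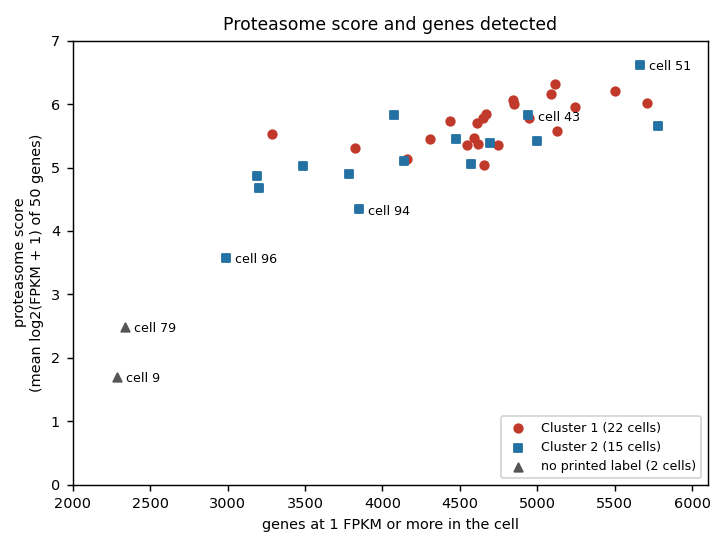
Proteasome score (mean log2(FPKM + 1) over 50 genes) against how many genes reached 1 FPKM, 1 point per cell, coloured by cluster. The unlabelled cells 9 and 79 have the lowest scores, 1.70 and 2.49, and the fewest genes, and cell 51 has the highest score, 6.62.

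Correlations between subunits of the same complex were low from cell to cell, but pairs of other genes were not compared. Over the 37 labelled cells, the median Spearman rho was 0.12 over 91 pairs of core genes, 0.05 over 136 pairs within the regulatory particle and 0.01 over 15 pairs of ATPases. The mean level of the core and that of the particle had rho = 0.48 and r = 0.59. The median rho of a member with the rest of the list was 0.21 over 47 genes, from -0.27 for Psma2 to 0.49 for Psmd8, against 0.13 for 4891 other genes with the same score. The genes outside the list most like the score were Nadk, which makes NADP (rho 0.65), Slc19a1, a folate carrier (0.61), Kbtbd2 (0.61), the mitochondrial chaperone Trap1 (0.60) and Triap1 (0.60).

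Genes that work with the proteasome, from lists set apart from the name rule, are given here against the 14.9% of all genes past the limit toward Cluster 1 and the 4.89% past it toward Cluster 2. Of 9 proteasome parts with other names, the deubiquitinases of the regulatory particle Uchl5 and Usp14 passed the limit toward Cluster 1, with differences of 2.26 (SD 2.16) and 1.01 (SD 1.92). Uchl5 was found in each of the 22 Cluster 1 cells and in 10 of 15 from Cluster 2. The core maturation factor Pomp (median 244 FPKM) differed by -0.22, and the small lid subunit Shfm1 (267 FPKM) by -0.23. Among genes that carry substrates to the proteasome, the shuttle factor Ubqln1 passed it toward Cluster 1, with a difference of 2.56 (SD 1.82). Its median was 18.6 FPKM in Cluster 1 and 0.908 in Cluster 2.

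For short lists, counts of 0 are near those shares and say nothing particular of the genes. Of 6 genes for ubiquitin and its activation, 0 passed the limit. The polyubiquitin gene Ubb was the highest, from 32.6 through a median of 2383 to 7342 FPKM. Of 4 genes for the factors that control proteasome transcription, 0 passed, and Nfe2l2 (NRF2) had a median of 118 FPKM, against 1.64 for Nfe2l1 (NRF1). Of 9 genes of the MHC class I list that averaged 1 FPKM or more, the interferon factors Irf1 (1.91) and Irf8 (1.35) and the peptidase Erap1 (1.41) passed toward Cluster 1, and the MHC class II chaperone Cd74 (-1.89) passed toward Cluster 2. Among labelled cells, the summed levels of the Paneth, goblet and tuft marker lists reached 8793, 41069 and 394 FPKM in Cluster 2. In Cluster 1 they reached 1829, 4816 and 11 FPKM. The medians over cells were 365, 178 and 0 FPKM in Cluster 2 and 156, 168 and 0 FPKM in Cluster 1. Single markers could peak elsewhere, such as the Paneth gene Defa22 in cell 93 of Cluster 1 (320 FPKM). The part of these lists in the differences was not tested.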

How the data were processed

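Single tdTomato+ Sca1- crypt cells were captured on a microfluidic chip and their full-length cDNA was sequenced by the authors. The submitters' processing notes name bcl2fastq 1.8.4, TopHat2 2.0.14 and mm10 (GRCm38); the counting tool is not given in the sources used here. Per gene and cell, FPKM and estimated counts were deposited, and 18.5% of the estimated counts above 0 were not whole. FPKM were used as deposited, as log2(FPKM + 1). Estimated counts gave depth (median 3089188 per cell) and, rounded, were thinned to 600000. No count model was fitted, since cells are not replicates. No molecular identifiers are named, so exact Clopper-Pearson 95% intervals cover counting error only, and a transcript lost before amplification reads as 0. No 2 of the 39 cells held identical values. Capture sites were inspected by microscope, so doublets were not called.

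Differences are between means of log2(FPKM + 1) for genes that averaged 1 FPKM or more in 37 labelled cells, computed over the whole table. The members and lists were chosen with earlier results of these data known. Named in full were the catalytic pairs, Psme1, Psme2, the highest and lowest median of each role, the 5 members with the largest difference in each direction and the 5 other genes most like the score (averaging 10 FPKM or more). Cells named for an extreme value were chosen after their values were seen. Of the list of substrate carriers, 1 gene is not reported here. Alternatives were other pseudocounts, filters, scalings, detection limits, clusterings and cell sets. The step that takes the difference between the clusters was tested on simulated data, and the other steps were not. The software was scipy 1.17.1, pandas 2.3.3, numpy 2.4.6 and matplotlib 3.10.9 under Python 3.11.15.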

Additional observations from a re-analysis of the deposited data

How the results depend on the processing

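The 9 members past the 2-fold limit toward Cluster 1 became 16 with a pseudocount of 0.1 FPKM, 20 when all 39 cells were clustered anew (cells 9 and 79 then joined Cluster 2), 15 without the 4 cells with Ly6a RNA, an alternative chosen after seeing the data, and 4 with the log2 ratio of mean FPKM. The shares of all genes past the limit were then 27.7%, 19.2%, 20.6% and 23.6%, and the members past it included 1, 6, 3 and 0 core genes. The 0 members past it toward Cluster 2 became 2 in cells paired on genes detected and 2 with the log2 ratio of mean FPKM, where 9.67% and 20.7% of all genes passed. The median difference over the members lay between 0.05 and 0.92, and the score difference between 0.24 and 0.87. Leaving out cell 96, or cells 43, 63 and 96, was also chosen after seeing the data and gave 8 and 10 members past the limit toward Cluster 1, with a median difference of 0.31 and 0.43. Rescaling each cell to the same sum gave 9. The cause of these shifts was not tested.

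No paired analysis was possible because the labels give each cell its own number and share none between clusters. All 14 core genes were found in 29 of 39 cells at 1 FPKM, in 31 at any value above 0, in 29 of 38 after thinning to 600000 counts, and in 25 of 38 when 5 reads were then required.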

Other observations

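Cell 63 of Cluster 2, with 23329 FPKM of Agr2, 7773 of Spink4 and 1498 of Lyz1, had all 14 core genes detected and the highest Psmb3 (1764 FPKM), Psmd11 (508 FPKM) and Psmd9 (249 FPKM) of all cells, but 5.76 FPKM of Psmb5. Its Ubb level of 7342 FPKM was also the highest.

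Cell 9, which had 398418 estimated counts and the highest Alpi (282 FPKM), an enterocyte enzyme, had 432 FPKM of Psmb6 while its median core gene was at 1.90 FPKM. Cell 43, with 661255 estimated counts, had 45 members detected, where the most in any cell was 46, and the highest Psmb10 (329 FPKM, 331 estimated counts) and Psmb5 (808 FPKM, 558 estimated counts).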
